A study of Solanum lycopersicum with 6 samples.

Results

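Tomato (*Solanum lycopersicum*) genes for enzymes that add or remove DNA methylation were examined in the pericarp, which is the fleshy fruit wall. The set holds 10 of the 23709 genes listed in at least 1 library: the demethylase genes *DML1* to *DML4* and the methyltransferase genes *MET1*, *CMT2*, *CMT3*, *CMT4*, *DRM5* and *DRM7*. They were taken by gene identifier, with no measured value in the choice. All 10 were listed in every library, and for each of them the RefSeq table holds a gene of the same name on the chromosome that the identifier gives. The study sequenced RNA from fruit at 38 days post anthesis, with 3 wild-type libraries and 3 labelled SlDof1 RNAi. Dof proteins are plant zinc-finger transcription factors, and RNAi silences a gene through double-stranded RNA. The RNAi samples are titled SlDof-8, and the labels do not say whether this is 1 transgenic line, which promoter drives the RNAi construct, how many fruits were pooled, or which gene identifier SlDof1 is, so the silencing itself was not checked here and the libraries are called RNAi-labelled.

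In plants, methyl groups on cytosines in and near genes and transposons often go with low transcription. Methyltransferases copy the marks to new DNA after replication, each type at its own sequence context, or set new marks where small RNAs guide them. DEMETER-like glycosylases, the enzymes that the DML genes encode, cut out methylated cytosines so that repair puts unmethylated ones in their place. In tomato, promoters of ripening genes lose methylation as the fruit ripens, *DML2* is the demethylase gene known to be needed for this, and fruit without its function ripens poorly.

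The libraries held total expected counts (estimated reads per gene, with reads shared among genes where they match several) of 9608643 to 10002358. Of the listed genes, 16737 had enough counts to be tested with edgeR's quasi-likelihood method, with p-values adjusted by Benjamini-Hochberg over all of them and a threshold of 0.05. The ripening regulators *RIN*, *NOR* and *CNR* and the fruit carotenoid gene *PSY1*, taken as markers of ripening pericarp, were each at 184 FPKM or more in every library (FPKM is the number of fragments scaled by transcript length and library size). Wild-type library 1 and RNAi-labelled library 3 lay together on the second principal component of log2 CPM (counts scaled to library size), at 32.58 and 32.24, and the other 4 libraries lay between -18.33 and -13.72. These 2 libraries, picked from these same data, are called the outlying pair, and fits without them hold 2 libraries a group. In bulk tissue, a lower level can come from fewer cells of a type or from less RNA per cell, and these cannot be told apart.

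*DML2* was by far the most abundant transcript of the set, and its groups overlapped. The change that passed under every setting tried was a rise of *DML1*, a demethylase gene of low level, which was 1.88-fold higher in RNAi-labelled fruit. *DRM7*, a methyltransferase gene of the small-RNA-guided type, was 1.70-fold lower, close to the threshold. The other 7 tested genes did not pass. In all, 1 of 9 tested genes rose, against 6.54% of all tested genes, and 1 fell, against 5.8%. Both directions together took 12.3% of all tested genes, so 2 calls among 9 are no result about the set as a whole. The median log2 fold change of the 9 was 0.02 beside -0.01 over all tested genes. For 2 of the 9 the groups had no overlap in FPKM, which was also so for 31% of all tested genes. The remaining gene, *CMT3*, had too few counts to be tested. All 9 reached the count minimum in each group taken alone, so none entered the test through 1 group only. All 60 expected counts of the set were whole numbers within 0.005.

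**Figure D1:**
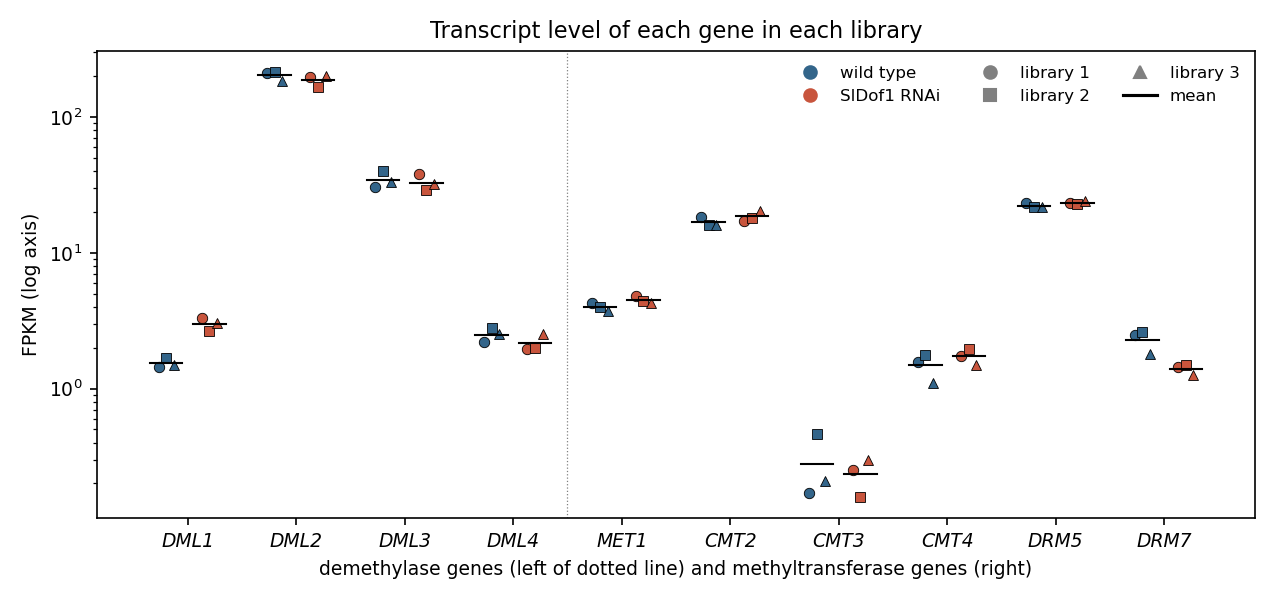
FPKM (log axis) of the 4 demethylase and 6 methyltransferase genes in 3 wild-type and 3 SlDof1 RNAi libraries, with symbols for single libraries and lines for group means. *DML2* lies between 165 and 215 in every library, and the groups are apart for *DML1* and *DRM7*.

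Among the demethylases, *DML2* (Solyc10g083630, chromosome 10, listed transcript length 5475 bases) had 211, 215 and 183 FPKM in wild-type libraries 1 to 3. In RNAi-labelled libraries 1 to 3 it had 197, 165 and 202 FPKM. The groups overlapped, with RNAi-labelled library 2 lowest. The means were 203 ± 17.2 and 188 ± 20.0 FPKM (SD, n = 3), the log2 fold change was -0.16 ± 0.10 SE, and edgeR's adjusted p was 0.379. The 95% interval of the fold change ran from 0.757 to 1.05 times the wild-type level. In wild-type fruit the *DML2* level was above that of 97.4% of all listed genes.

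*DML1* (Solyc09g009080, chromosome 9, 5523 bases) had 1.45, 1.68 and 1.49 FPKM in the wild-type libraries, from 77, 91 and 82 counts. In RNAi-labelled fruit it had 3.31, 2.66 and 3.06 FPKM, from 179, 145 and 163 counts. Every RNAi-labelled library was above every wild-type library. Of the outlying pair, wild-type library 1 was the lowest of its group and RNAi-labelled library 3 was between the others of its own. The mean rose from 1.54 ± 0.123 to 3.01 ± 0.328 FPKM (n = 3, SD). Its log2 fold change was 0.91 ± 0.14 (SE), with a 95% interval of 0.60 to 1.22 and an edgeR adjusted p of 0.00406. The rise passed under all 14 alternative settings, with adjusted p from 8.21e-05 to 0.0339. Without the outlying pair, where 11.4% of tested genes were called higher, its log2 fold change was 0.86, with an edgeR adjusted p of 0.00127.

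*DML3* (Solyc11g007580, chromosome 11) was the second demethylase by level. It had 30.4, 39.8 and 33.1 FPKM in wild-type and 37.8, 29.1 and 31.9 FPKM in RNAi-labelled libraries 1 to 3. The groups overlapped over most of their range, and the difference did not pass (log2 fold change -0.12 ± 0.13 SE, edgeR adjusted p = 0.655). *DML4* (Solyc03g123440, chromosome 3) had 2.20, 2.77 and 2.51 FPKM in wild-type and 1.97, 1.99 and 2.52 FPKM in RNAi-labelled libraries. Here the outlying pair crossed the order of the other 4 libraries, since wild-type library 1 was the lowest of its group and RNAi-labelled library 3 the highest of its own. Over all libraries *DML4* did not pass (log2 fold change -0.26 ± 0.15 SE, edgeR adjusted p = 0.331). In the other 4 alone its log2 fold change was -0.46, with an edgeR adjusted p of 0.0379, in a fit that called 10.5% of tested genes lower. Leaving out those 2 values by itself widens the gap between the groups. *DML4* passed under this 1 of 14 alternative settings only, so no fall is reported.

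*DML2* made up 84.1 ± 1.79% of the summed demethylase FPKM in wild-type fruit and 83.2 ± 1.14% in RNAi-labelled fruit (SD, n = 3). *DML3* followed with 14.3 ± 1.63% and 14.6 ± 1.20%. The share of *DML1* was 0.591%, 0.649% and 0.676% in wild-type libraries and 1.38%, 1.34% and 1.28% in RNAi-labelled ones. So the demethylase gene that rose contributed little to the sum, which was 242 ± 19.5 FPKM in wild-type and 226 ± 23.6 FPKM in RNAi-labelled fruit, with overlapping groups. The ratio of *DML2* to *DML1* was 132 ± 12.0 in wild-type and 62.6 ± 3.22 in RNAi-labelled fruit.

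Among the maintenance methyltransferases, *MET1* (Solyc11g030600, chromosome 11), which copies methylation at CG sites, had 4.30, 4.01 and 3.71 FPKM in wild-type libraries. In RNAi-labelled libraries it had 4.82, 4.43 and 4.29 FPKM. The groups met at 4.30 and 4.29 FPKM, and the difference did not pass (log2 fold change 0.12 ± 0.11 SE, 95% interval of the fold 0.913 to 1.29, edgeR adjusted p = 0.571). *CMT2* (Solyc12g100330, chromosome 12), a chromomethylase, the plant-specific type that in *Arabidopsis* acts at sites other than CG in silent chromatin, had 18.2, 16.0 and 16.2 FPKM in wild-type and 17.2, 18.1 and 20.4 FPKM in RNAi-labelled libraries. The groups overlapped (log2 fold change 0.09 ± 0.10 SE, edgeR adjusted p = 0.632).

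*CMT4* (Solyc08g005400, chromosome 8), another chromomethylase gene, had 1.58, 1.77 and 1.09 FPKM in wild-type and 1.73, 1.96 and 1.49 FPKM in RNAi-labelled libraries, so that the groups overlapped. The means were 1.48 ± 0.351 and 1.73 ± 0.235 FPKM (n = 3, SD), with a log2 fold change of 0.17 ± 0.21 (SE) and an edgeR adjusted p of 0.687. Wild-type library 3 was the lowest of all 6 at 1.09 FPKM, and without that library the fitted log2 fold change was -0.00207 in place of 0.17. *CMT3* (Solyc01g006100, chromosome 1), which in *Arabidopsis* maintains methylation at CHG sites (H is any base but G), was close to the detection limit. It had 4, 11 and 5 counts in wild-type and 6, 4 and 7 in RNAi-labelled libraries. The sums of 20 (95% exact Poisson interval 12.2 to 30.9, counting error only) and 17 (9.9 to 27.2) were not distinguishable at this depth. In the edgeR fit without a filter its log2 fold change was -0.28, with an interval of -1.42 to 0.87 (adjusted p = 0.815).

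Of the DRM genes, whose products set methylation at sites marked by small RNAs, *DRM5* (Solyc02g062740, chromosome 2) was the most abundant methyltransferase of the set and had the smallest SE of the fold change. It had 23.3, 21.7 and 21.9 FPKM in wild-type and 23.4, 22.9 and 24.1 FPKM in RNAi-labelled libraries. The groups overlapped between 22.9 and 23.3 FPKM, and the log2 fold change was 0.02 ± 0.08 SE (edgeR adjusted p = 0.927), with a sign that turned to -0.01 without wild-type library 2.

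*DRM7* (Solyc04g005250, chromosome 4) had 2.47, 2.59 and 1.81 FPKM in wild-type libraries, from 49, 52 and 37 counts. In RNAi-labelled libraries it had 1.44, 1.48 and 1.26 FPKM, from 29, 30 and 25 counts. Every RNAi-labelled library was below every wild-type library, and wild-type library 3 was the nearest to them. The mean fell from 2.29 ± 0.420 to 1.39 ± 0.117 FPKM (n = 3, SD). Its log2 fold change was -0.77 ± 0.20 (SE), with a 95% interval of -1.23 to -0.30 and an edgeR adjusted p of 0.0437. The call was not firm: it held under 3 of 14 alternative settings and was lost on leaving out any library other than wild-type library 3 (edgeR adjusted p 0.0428 without that library and 0.0907 to 0.161 without another). DESeq2 gave an adjusted p of 0.103, edgeR without a filter 0.053, and limma on log2(FPKM + 1) 0.0707. Without the outlying pair the log2 fold change was -0.63, at an edgeR adjusted p of 0.0925. The fold change was below 0 under every setting run. The ratio of *DRM5* to *DRM7* was 9.96 ± 1.90 in wild-type and 16.9 ± 1.92 in RNAi-labelled fruit.

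**Figure D2:**
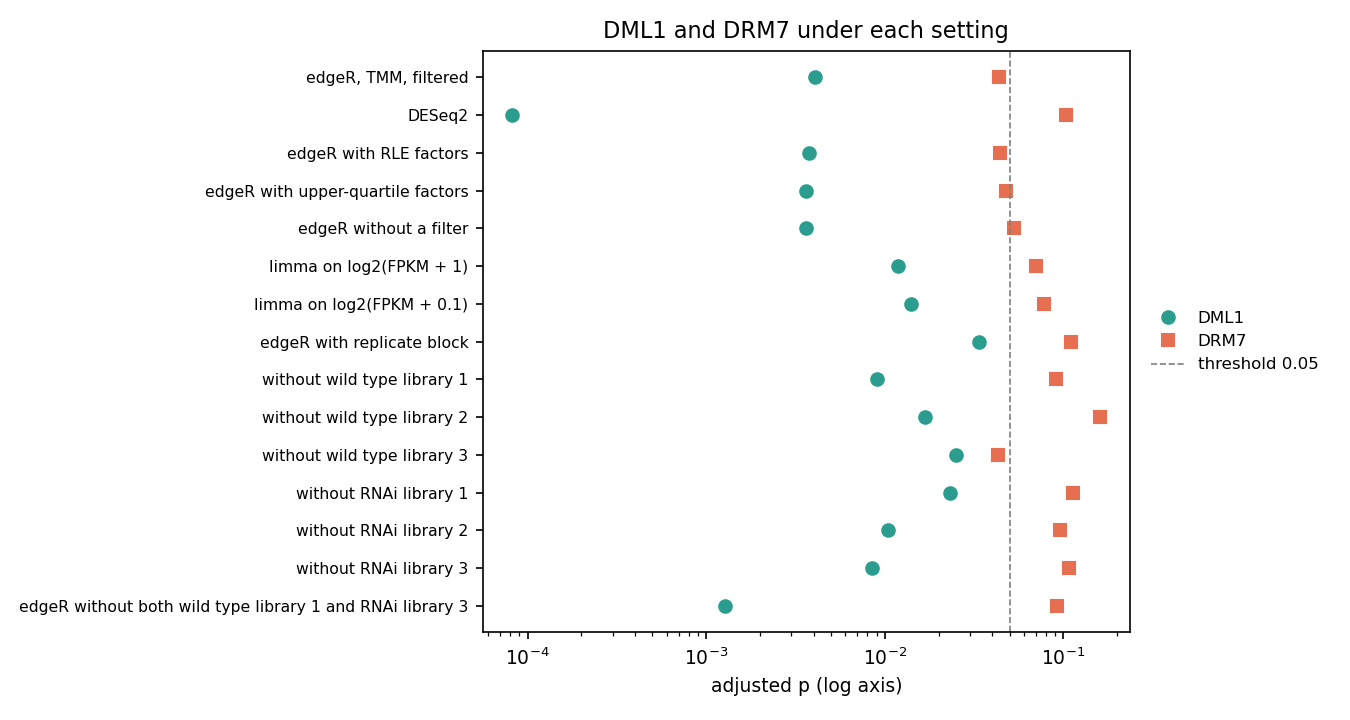
Adjusted p (log axis) of *DML1* (circles) and *DRM7* (squares) under the reported edgeR fit and 14 alternatives, with the threshold of 0.05 dashed. *DML1* lies below 0.05 under each of them, and *DRM7* lies on both sides, between 0.0428 and 0.161.

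The order of the genes by level per length was the same in both groups for the first 5: *DML2*, *DML3*, *DRM5*, *CMT2* and *MET1*. Their wild-type means were 203, 34.4, 22.3, 16.8 and 4.01 FPKM, and the ranges of neighbours in that order did not overlap. Below them in wild-type fruit came *DML4* at 2.49, *DRM7* at 2.29, *DML1* at 1.54, *CMT4* at 1.48 and *CMT3* at 0.28 FPKM. There the ranges of *DML4* and *DRM7* overlapped, as did those of *DML1* and *CMT4*. In RNAi-labelled fruit *DML1*, at 3.01 FPKM, stood directly below *MET1*, and *DRM7*, at 1.39 FPKM, stood directly above *CMT3*, with no overlap of ranges between neighbours, though only narrowly from *DML4* to *DRM7*.

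The balance of demethylation and maintenance was described by ratios of FPKM within a library, which do not depend on how libraries are scaled. *DML2* was 49.2, 53.5 and 49.4 times *MET1* in wild-type libraries and 40.9, 37.3 and 47.1 times in RNAi-labelled ones. The means were 50.7 ± 2.46 and 41.8 ± 4.94 (SD, n = 3), and the groups did not overlap. Neither gene passed the test by itself, and 31% of single tested genes were also without overlap. The *MET1* counts of 176 to 225 per library limit the ratio. Its exact binomial 95% interval, which covers counting error only, was 42.8 to 57.0, 46.4 to 62.3 and 42.6 to 57.7 in wild-type libraries 1 to 3. In RNAi-labelled libraries 1 to 3 it was 36.0 to 47.1, 32.6 to 43.0 and 41.0 to 54.6.

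Against the sum of the 6 methyltransferase genes of the set, *DML2* was 4.22, 4.62 and 4.09 times as high in wild-type libraries. In RNAi-labelled libraries it was 4.04, 3.37 and 3.90 times as high. The groups did not overlap, but wild-type library 3 and RNAi-labelled library 1 were close. The difference of the mean log2 ratios was -0.20, and -0.12 without RNAi-labelled library 2. The sum leaves out *DRM6* (30.2 and 26.0 FPKM in wild-type and RNAi-labelled fruit) and *DRM8* (8.84 and 7.42 FPKM), also methyltransferase genes. *DRM6* was lowest in RNAi-labelled library 3, at 22.35 FPKM. With *DRM6* and *DRM8* added to the sum, the ratio of *DML2* to it overlaps between the groups. So the lack of overlap holds for the 6 summed genes only and is no result about the methyltransferase genes as a whole. The sum does not hold maintenance genes alone, since *DRM5* and *DRM7* made up 47.3% and 4.85% of it in wild-type fruit. Over *MET1*, *CMT2*, *CMT3* and *CMT4* only, the ratio was 9.02 ± 0.569 in wild-type and 7.51 ± 0.767 in RNAi-labelled fruit. Those groups did not overlap, which was also so for 31% of single tested genes. The ratio of *DML2* to *CMT2* overlapped between groups, at 12.1 ± 1.15 and 10.2 ± 1.20. The sum of the 6 methyltransferase genes was 47.1 ± 2.67 FPKM in wild-type and 49.9 ± 1.67 FPKM in RNAi-labelled fruit, again with overlap. No p is given for these ratios, since they are made from genes chosen for this report.

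**Figure D3:**
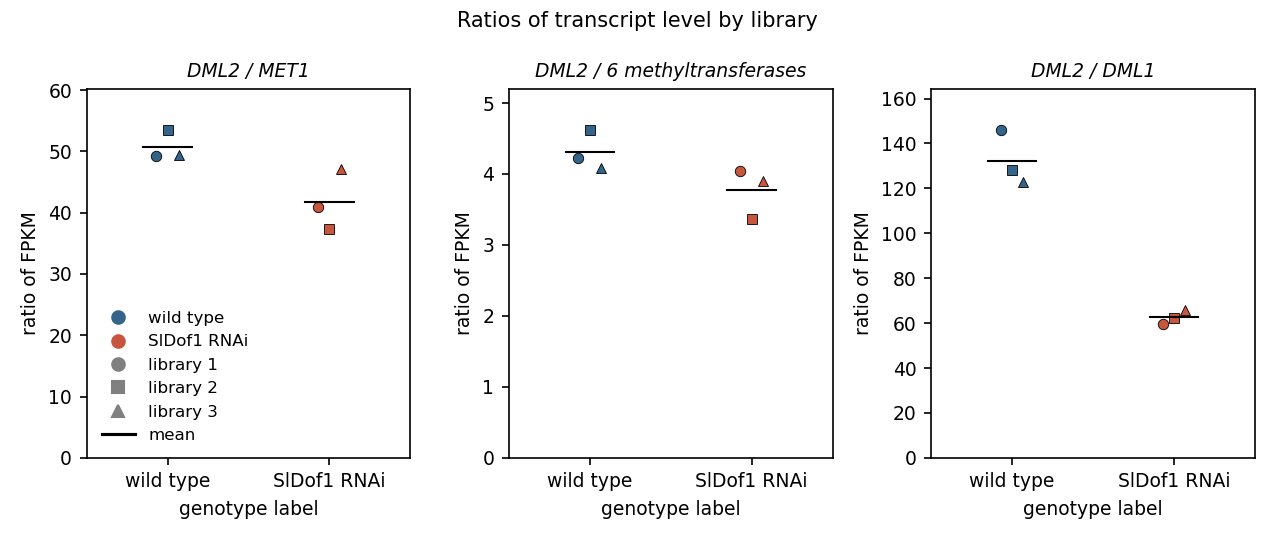
Ratios of FPKM by library for *DML2* to *MET1*, *DML2* to the sum of 6 methyltransferase genes, and *DML2* to *DML1*, with axes from 0, symbols for libraries and lines for group means. The first 2 ratios are lower in RNAi-labelled fruit by small margins. The second is for a sum that leaves out *DRM6* and *DRM8*, and the groups overlap once these are added. The third has means of 132 and 62.6, where *DML1* is the gene that rose.

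Over all 6 libraries, none of the other tested genes of the methylation pathway passed edgeR. Of 7 genes for RNA-directed DNA methylation with a name in RefSeq, 6 were tested, 0 rose and 0 fell with edgeR, 0 had an unadjusted p under 0.05, and 0 passed under the 14 alternative settings, DESeq2 and limma among them. The closest were the methyltransferase genes *DRM8* (Solyc05g053260), at 8.84 ± 1.03 and 7.42 ± 0.970 FPKM, and *DRM6* (Solyc10g078190), at 30.2 ± 3.21 and 26.0 ± 3.34 FPKM (n = 3, SD), with log2 fold changes of -0.31 and -0.27 and edgeR adjusted p of 0.206 and 0.231. By mean level *DRM6* was above *DRM5* in both groups. The Argonaute genes *AGO4A* and *AGO4B*, whose products carry the guiding small RNAs, were at 39.7 ± 3.19 and 12.5 ± 0.297 FPKM in wild-type and 43.6 ± 1.44 and 12.9 ± 0.570 FPKM in RNAi-labelled fruit. The Dicer-like gene *DCL3* and *AGO6* did not pass (edgeR adjusted p = 0.869 and 0.699), and *AGO4D*, with 0 to 3 counts a library, was not tested.

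Of 3 genes for synthases of S-adenosylmethionine, the methyl donor of these enzymes and a precursor of ethylene, 0 passed with edgeR over all libraries, 0 had an unadjusted p under 0.05, and 0 passed with DESeq2 or limma. *SAM3* (Solyc09g008280) was at 271 ± 85.5 and 373 ± 103 FPKM, with a log2 fold change of 0.41 ± 0.28 (SE) and an edgeR adjusted p of 0.417. Its level was low in the outlying pair, at 173 FPKM in wild-type library 1 and 254 FPKM in RNAi-labelled library 3, each the lowest of its group. In the other 4 libraries it passed (edgeR adjusted p = 0.00062), in a fit that called 11.4% of tested genes higher. *SAM3* passed under this 1 of 14 alternative settings only. Another 8 identifiers had no gene of that name in RefSeq and are given no name. They were 4 for RNA-directed DNA methylation, 1 for methyl donor supply and 3 for cofactors of methylation maintenance. Of the 8, 7 were tested and 0 passed with edgeR (lowest adjusted p 0.124, and 0.725 among the 3 cofactors). Among the 7, 1 had an unadjusted p under 0.05 with edgeR, and 0 passed with DESeq2 or limma. In each of 2 other edgeR fits 1 passed, that without wild-type library 1 and that without the outlying pair.

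**Figure D4:**
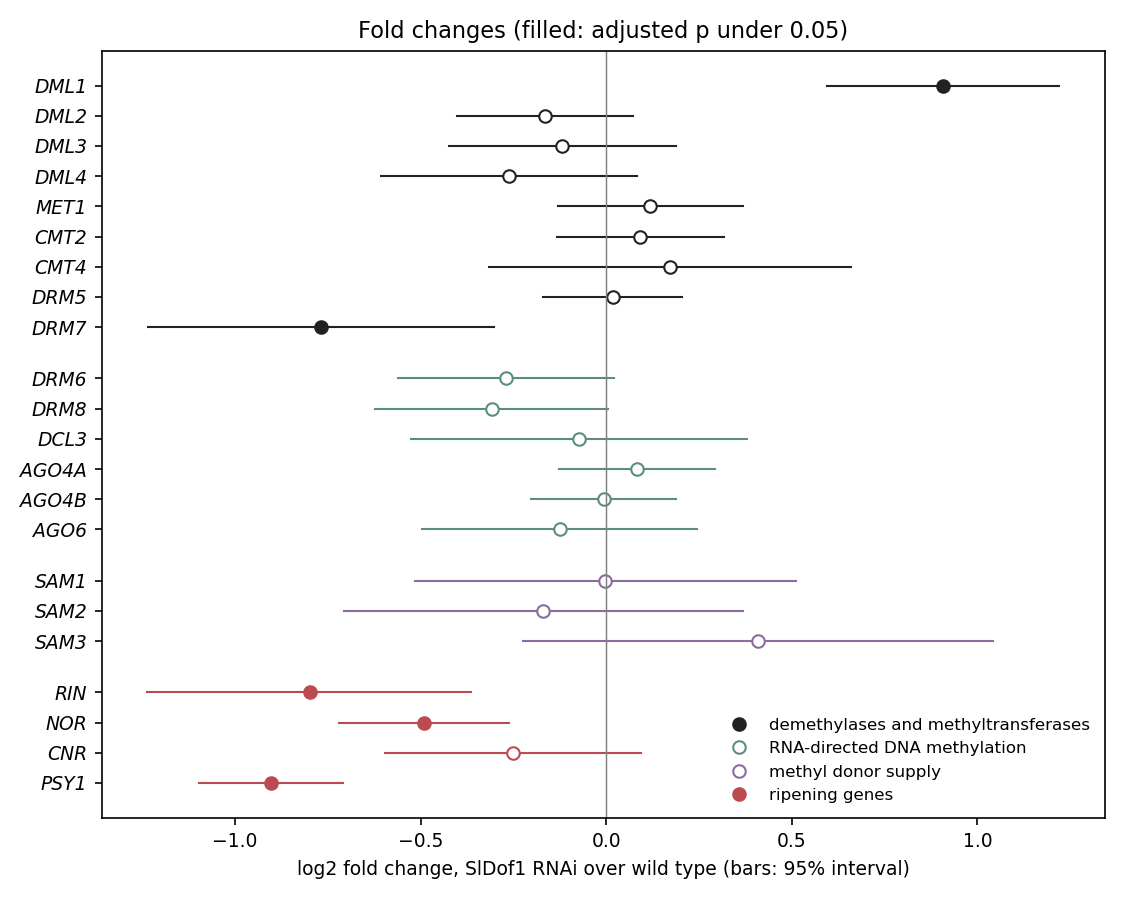
Log2 fold change of RNAi-labelled over wild-type fruit with its 95% interval for tested genes with a name in RefSeq, by list, with filled symbols where the adjusted p is under 0.05. *DML1* lies at 0.91 and *DRM7* at -0.77, while *DML2* at -0.16 and *MET1* at 0.12 have intervals that hold 0.

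Of 4 ripening genes whose promoters are known to lose methylation in ripening tomato, 3 fell in the same libraries, where edgeR called 5.8% of all tested genes lower. The list was chosen with results of these data known, and the levels of its genes were set beside that of *DML2*. The log2 fold changes were -0.90 for *PSY1* (phytoene synthase; 95% interval -1.10 to -0.71), -0.80 for *RIN* (-1.24 to -0.36) and -0.49 for *NOR* (-0.72 to -0.26), while *CNR* did not pass at -0.25 (-0.60 to 0.10). For *DML2* the interval was -0.40 to 0.07. It does not meet that of *PSY1* and overlaps those of the other 3. Whether intervals of single genes meet is no test of a difference between genes measured in the same libraries. The *PSY1* to *DML2* ratio of FPKM was 6.82, 6.51 and 6.92 in wild-type and 3.85, 4.58 and 3.78 in RNAi-labelled libraries, and the groups did not overlap. They did not overlap either for *RIN* to *DML2*, at 2.51, 1.63 and 1.86 in wild-type and 1.10, 1.31 and 1.46 in RNAi-labelled libraries, or for *NOR* to *DML2*, at 1.29 ± 0.112 and 1.03 ± 0.0928 (SD, n = 3). The *NOR* groups were close, with 1.16 in wild-type library 2 and 1.12 in RNAi-labelled library 2. The FPKM of *PSY1*, *RIN* and *NOR* taken alone did not overlap between groups either, as for 31% of all tested genes. So these ratios are no separate result about *DML2*. The ratio of *CNR* to *DML2* overlapped at 1.36 ± 0.187 and 1.30 ± 0.148. The calls of *RIN* and *NOR* were lost on leaving out RNAi-labelled library 1 or 2, where edgeR adjusted p reached 0.118 and 0.0813, and that of *RIN* with limma at either pseudocount (adjusted p = 0.06 on log2(FPKM + 1)).

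The tested genes with a mean of at least 5 FPKM whose log2 CPM over the 6 libraries was most like that of *DML2* were Solyc02g081460 and Solyc07g066300 (Pearson r = 0.9949 for both). For *MET1* they were Solyc12g009160 (r = 0.9732) and Solyc03g083290 (r = 0.9719). These are the highest of 12686 and 12687 correlations with 6 points each from shared libraries, and no test was made.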

How the data were processed

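Per the labels' protocols, pericarp RNA was isolated with SDS and phenol and made into Illumina libraries. The deposited files give, per the file headers, an expected count and an FPKM value per gene. The aligner, counting program, build and strand were not given in the sources used here. A gene missing from a file was given 0. Expected counts were rounded and tested with edgeR 4.0.16 in R 4.3.3: filterByExpr (minimum count 10, minimum total 15), TMM factors (0.967 to 1.04), glmQLFit and glmQLFTest with group as the only term, over all 16737 genes. The SE was taken as the size of the log2 fold change over the square root of the F statistic, with t quantiles for 95% intervals. Alternatives were DESeq2 1.42.0, limma 3.58.1 on log2(FPKM + 1) and log2(FPKM + 0.1), other scaling factors, no filter, a replicate block, and fewer libraries. The edgeR step was tested on counts simulated from its own fitted levels and spread, without the pattern of the outlying pair. The share of false calls there was above the nominal level. So a call near the threshold, such as that of *DRM7*, is less firm than its adjusted p. The simulation cannot give the share of false calls in the real libraries. FPKM values are as the authors deposited them and were not scaled by the TMM factors. The median log2 fold change over all tested genes was 0.041 with limma on log2(FPKM + 1) and -0.01 with edgeR. FPKM means and sums of RNAi-labelled fruit therefore lie slightly higher against wild type than edgeR's fold changes do.

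The genes and lists were chosen with earlier results of these data known, and names written from memory were printed only where RefSeq (assembly SLM_r2.1) holds a gene of that name or synonym on the same chromosome, which was so for all 10 genes of the set and 14 of 22 others. This does not tie a name to an identifier beyond the chromosome. All genes of the set are named. Of the other lists, genes with such a name that passed or had a mean of at least 5 FPKM are named, and *DCL3*, *AGO6* and *AGO4D* were added after their values were seen. Nothing in the labels says that replicates came from separate plants, and p-values then measure only the spread between these libraries.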

Additional observations from a re-analysis of the deposited data

How the results depend on the processing

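The *DML1* rise kept its direction and its side of the threshold under all 14 alternatives, with log2 fold changes of 0.66 to 0.98. *DML2* did not pass under any (-0.23 to -0.09), nor did *DML3* (-0.23 to -0.01, the latter without wild-type library 2), *MET1* (0.07 to 0.21), *CMT2* (0.03, without RNAi-labelled library 3, to 0.15), *CMT4* or *DRM5*. The sign turned for *CMT4* without wild-type library 3 (-0.00207; 0.314 at most on leaving out 1 library) and for *DRM5* without wild-type library 2 (-0.00663; 0.0449 at most). The number of genes of the set called lower was 0 in place of 1 with DESeq2, with edgeR without a filter, with limma at either pseudocount and with the replicate block. Leaving out 1 library gave 0 to 1 such genes, and 1108 to 2038 called genes over the transcriptome in place of 2065. There were 877 such calls with the replicate block, where *RIN* and *NOR* did not pass either (edgeR adjusted p = 0.082 and 0.0985), and 3693 without the outlying pair. The causes were not tested. No pairing of libraries by replicate number was seen: deviations of same-numbered libraries correlated at -0.493, 0.279 and -0.521, and 0 of 6 libraries correlated best with its own number. The check cannot exclude a weaker pairing, since the outlying pair shapes these deviations. With expected counts in place of FPKM, the *DML4* share of the demethylase sum was 0.866% instead of 0.996%, as its transcript is the shortest of the 4. Depth limits *CMT3*, and *DRM7* with 25 to 52 counts a library.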

Other observations

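The S-adenosylmethionine synthase genes varied with the outlying pair of libraries. *SAM1* (Solyc01g101060) had 147, 223 and 241 FPKM in wild-type libraries 1 to 3 and 238, 240 and 155 FPKM in RNAi-labelled libraries 1 to 3. *SAM2* (Solyc12g099000) had 84.8, 126 and 141 FPKM in wild-type and 123, 125 and 76.2 FPKM in RNAi-labelled libraries. Wild-type library 1 and RNAi-labelled library 3 were the lowest 2 of 6 for both genes. The demethylase gene *DML2* did not share this order, with 211 FPKM in wild-type library 1 and 202 FPKM in RNAi-labelled library 3, both among its 3 highest values. Over all tested genes, the deviations from the group means of these 2 libraries correlated at 0.696, as a description across genes.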
